A study of Mus musculus with 23 samples.

Results

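The RNA levels of 10 genes of the melanocyte lineage and of pigment synthesis were followed through all 23 RNA-seq libraries of a study of the nuclear receptor NR2F6 in B16F10 melanoma. The genes were taken by symbol from a table of 47643 genes: the transcription factors Mitf and Sox10, the melanin enzymes Tyr, Tyrp1 and Dct, the melanosome proteins Pmel and Mlana, the transporters Slc45a2 and Oca2, and the receptor Mc1r. Each symbol matched 1 gene, and all 10 were detected in all 23 libraries. B16F10 is an established, pigmented, metastasis-prone mouse melanoma line of C57BL/6 origin.

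In the study, B16F10 cells were transfected with Cas9 protein and 1 of 2 guides against Nr2f6, sg492 or sg495 (genotype labelled NR2F6 KO). These were compared with control B16F10 cells (genotype labelled WT), for which the study's methods describe no guide. The edited cells were sorted for a fluorescent dye on the guide, and the sources used here do not say whether a line is a pool or 1 clone. RNA came from 3 sample types, with 2 libraries each of control, sg492 and sg495 per type, 18 in all. Bulk samples were whole subcutaneous tumors grown in young male C57BL/6 mice. Sorted samples were tumor cells enriched from such tumors by magnetic depletion of stromal cells, and cultured samples were cells kept in culture. To obtain the sorted cells, tumors were digested with collagenase D for 1 h at 30 °C. A further 5 libraries carry the genotype WT and the names IgG_Control (2) or anti-PD1 (3), an isotype control and an antibody that blocks the PD-1 checkpoint receptor. Their labels give no sample type, so they were tested only against each other and are set beside the other 18 as a description. Values are TPM, transcript abundances scaled for gene length and to the same total in every library, so that levels of different genes can be set side by side. The submitters state a depth of 23000000 to 31000000 reads per library, and the depth of single libraries is unknown from TPM. The labels do not say that the 2 libraries of a group came from separate animals or cultures, so the p-values measure only the spread between libraries.

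Melanocytes make melanin in the melanosome, a lysosome-related organelle. Tyrosinase (Tyr) oxidises tyrosine and starts the pathway, dopachrome tautomerase (Dct) and tyrosinase-related protein 1 (Tyrp1) act on later intermediates of eumelanin, Pmel forms the fibrils on which melanin is laid down, Mlana takes part in melanosome maturation together with Pmel, and Slc45a2 and Oca2 are membrane transporters that set the pH of the organelle. The receptor Mc1r raises cyclic AMP in response to melanocortin peptides, cyclic AMP acts through CREB on the melanocyte promoter of Mitf, and MITF, together with SOX10, drives many of the pigment genes. MITF binds short E-box-like motifs, CATGTG (the M-box core) and CACGTG.

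Of the 10 genes, 6 had a promoter window (250 bases before to 50 after a start site) in the RefSeq table for GRCm38.p6 that was available, 8 windows in all, and the 250 bases before the start were searched on both strands. CATGTG or its complement was found in windows of 5 genes and CACGTG in 0, against CATGTG in 12.3%, CACGTG in 6.02% and either motif in 17.6% of the 32851 windows of the table. The stretch of each window that holds its motifs is shown, up to the start site, because these motifs name the link between Mitf and the enzyme genes. Sequences run 5′ to 3′ on the strand of the gene and end at the base before the RefSeq start site, and capitals mark CATGTG or CACATG (the same motif on the other strand), or, for Mitf, the palindromic cyclic AMP response element TGACGTCA, which 1.55% of all windows hold.
Tyr, chr7:87493513-87493612, minus strand: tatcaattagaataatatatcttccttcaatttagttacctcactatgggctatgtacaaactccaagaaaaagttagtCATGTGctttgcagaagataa
Tyrp1, chr4:80834113-80834212, plus strand: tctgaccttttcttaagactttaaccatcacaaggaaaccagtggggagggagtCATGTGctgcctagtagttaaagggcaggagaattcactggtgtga
Dct, chr14:118052247-118052496, minus strand: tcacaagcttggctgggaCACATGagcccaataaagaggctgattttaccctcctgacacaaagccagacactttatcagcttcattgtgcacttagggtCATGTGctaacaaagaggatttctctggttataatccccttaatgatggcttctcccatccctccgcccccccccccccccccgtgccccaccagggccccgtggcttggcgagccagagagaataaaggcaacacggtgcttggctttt
Oca2, chr7:56239553-56239758, plus strand: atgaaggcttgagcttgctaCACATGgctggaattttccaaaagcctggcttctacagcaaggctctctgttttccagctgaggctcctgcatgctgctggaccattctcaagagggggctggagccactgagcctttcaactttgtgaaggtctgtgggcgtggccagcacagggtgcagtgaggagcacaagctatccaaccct
Mc1r, chr8:123406982-123407081, plus strand: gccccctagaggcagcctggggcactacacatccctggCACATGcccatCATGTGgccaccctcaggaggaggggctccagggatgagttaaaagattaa
Mitf, chr6:97991610-97991782, plus strand: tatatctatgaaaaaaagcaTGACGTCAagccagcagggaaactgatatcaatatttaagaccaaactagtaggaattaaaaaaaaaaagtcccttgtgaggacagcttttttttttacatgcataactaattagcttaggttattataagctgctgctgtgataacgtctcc
The motif began 21 bases before the start in Tyr, 46 bases before it in Tyrp1, 232 and 150 bases before it in Dct, 186 in Oca2, and 62 and 51 in Mc1r. Mitf has several start sites in the table, and the window shown, with TGACGTCA 153 bases before its start, was chosen after its values were seen. A match of letters describes the sequence and does not show binding, and Pmel, Mlana, Sox10 and Slc45a2 are named here without a window.

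In position (GRCm38, gene spans), Tyr lies at chr7:87424771-87493512 and Oca2 on the same chromosome at chr7:56239760-56536518. Tyrp1 lies at chr4:80834123-80851719, Dct at chr14:118012790-118052244, Pmel at chr10:128704195-128720238 and Mlana at chr19:29697824-29708634. Mitf lies at chr6:97807052-98021349, Sox10 at chr15:79154908-79165240, Slc45a2 on the same chromosome at chr15:11000721-11029233, and Mc1r at chr8:123407107-123410744. Mc1r shares chromosome 8 with the edited gene Nr2f6 (chr8:71374123-71381960), 52.0 Mb away. Reads of overlapping genes may be shared, since the strand setting of the counting was not given in the sources used here: Pmel overlaps Cdk2 on the other strand (up to 377.96 TPM in the 18 libraries), and Mc1r lies within the long locus Gm20388 on its own strand (up to 38.52 TPM).

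The pigment genes were among the abundant transcripts of the line. Summed over the 10 genes, the level was 15721.81 to 16777.44 TPM in the 6 bulk tumors, 15388.29 to 18149.58 TPM in the 6 sorted samples and 17911.41 to 18315.63 TPM in the 6 cultured samples, that is 1.572 to 1.678%, 1.539 to 1.815% and 1.791 to 1.832% of each library. Tyrp1 and Dct, the later-step enzymes, were the most abundant, followed by Pmel and Mlana, and then, a wide step lower, by Slc45a2, Tyr, Mitf and Sox10, with Mc1r and Oca2 lowest. The order within that group of 4 was not the same throughout. Slc45a2 and Tyr overlapped in sorted and cultured cells, Mitf overlapped Tyr in bulk tumors and both Tyr and Slc45a2 in sorted cells, and Mitf and Sox10 overlapped in bulk tumors. Mitf lay above Sox10 in all 6 sorted samples and below it in all 6 cultured ones. Within a sample type the coefficient of variation over the 6 libraries of all guides was 2.85 to 4.23% for Sox10, 3.25 to 6.7% for Dct and 4.33 to 9.0% for Tyrp1, against 8.72 to 18.93% for Mitf, 9.12 to 17.7% for Oca2 and 13.97 to 27.17% for Mc1r. The top 2 exchanged places between sample types: Tyrp1 exceeded Dct in all 6 bulk tumors (ratio of levels 1.02 to 1.19) and all 6 cultured samples (1.10 to 1.42), whereas Dct exceeded Tyrp1 in all 6 sorted samples (0.818 to 0.906).

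**Figure D1:**
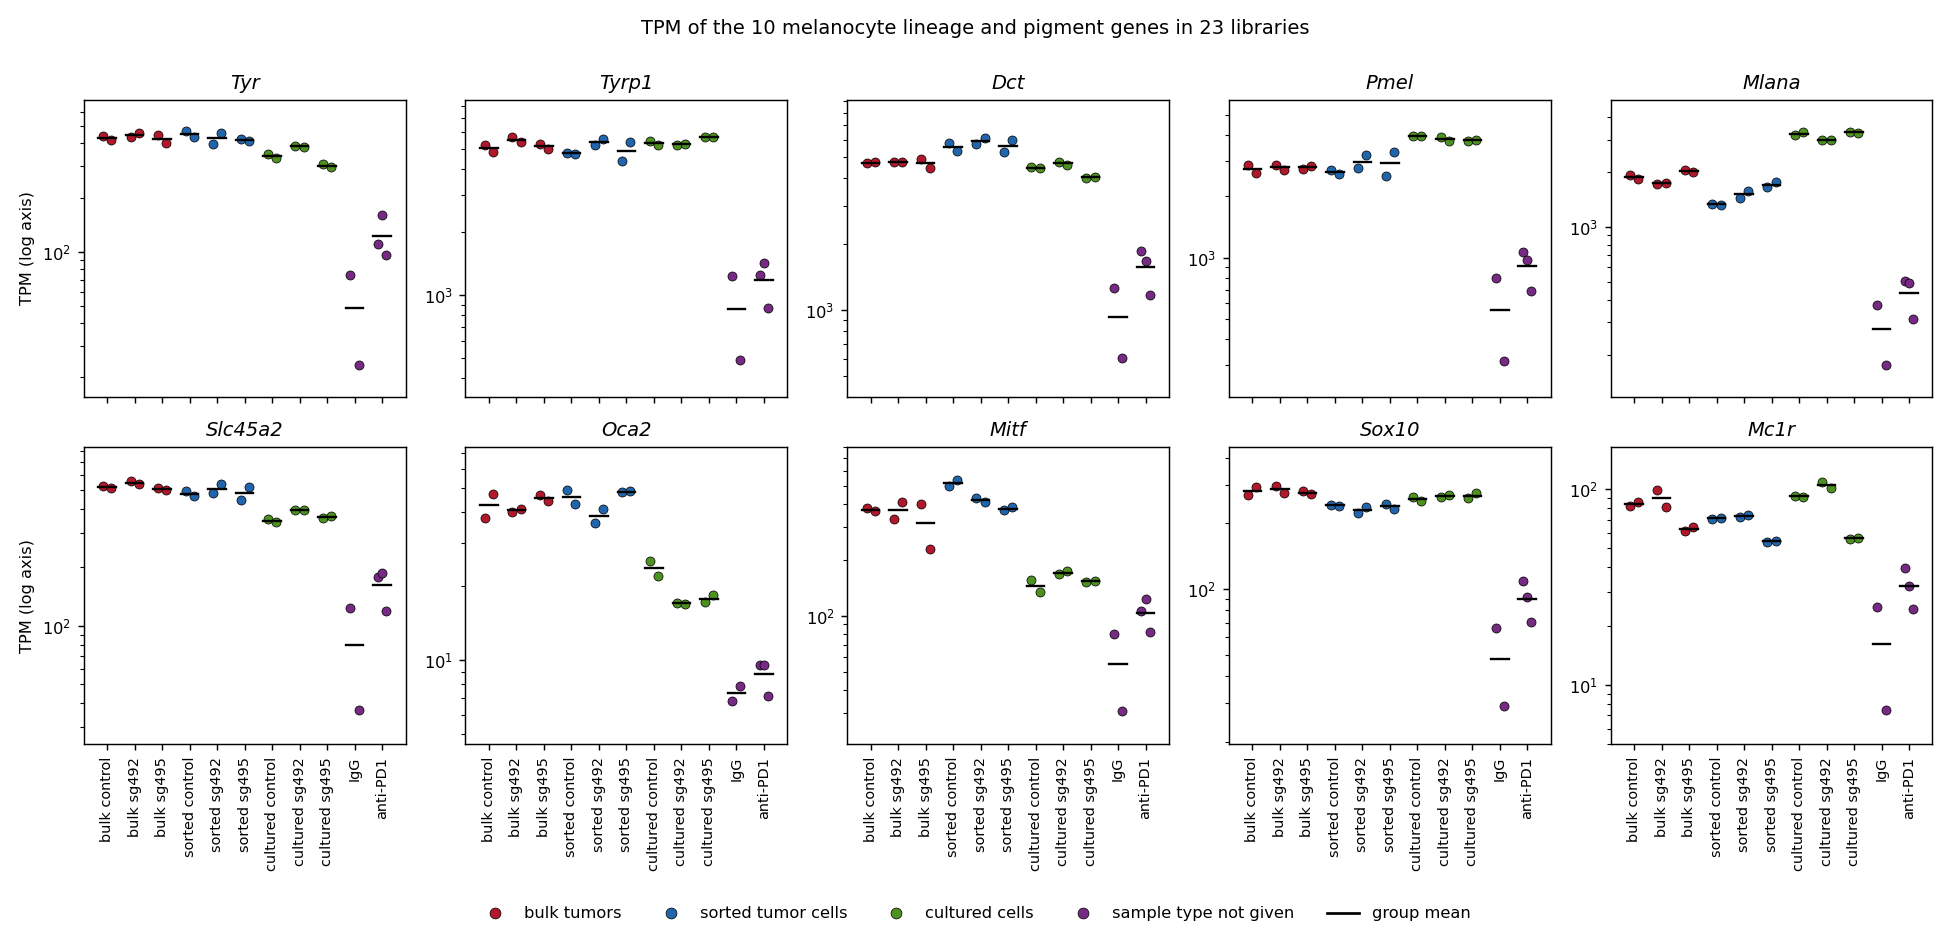
TPM of each of the 10 genes in each of the 23 libraries on a log axis, 1 panel per gene, with points coloured by sample type and lines at the group means. Tyrp1 and Dct lie highest in the 18 NR2F6-study libraries, Oca2 and Mc1r lie lowest, and the IgG and anti-PD1 libraries lie below the other 18 for every gene.

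The comparison of sorted tumor cells with cultured cells asked how the pigment programme of the line differs between a tumor and a dish, and 3 of the 10 genes changed: Mitf and Oca2 rose and Mlana fell. Over 6 libraries each, Mitf, the lineage transcription factor, ranged from 368.74 to 535.23 TPM in sorted cells (median 418.26) and from 134.27 to 173.72 TPM in cultured cells (median 155.07), 2.77-fold higher (log2 fold change 1.47, SE 0.107, limma adjusted p = 1.12e-07). Oca2, the anion transporter of the melanosome, ranged from 36.31 to 49.09 TPM (median 45.75) against 16.96 to 25.39 TPM (median 17.83), a log2 fold change of 1.15 (SE 0.0613, limma adjusted p = 7.04e-09). Mlana ranged from 1321.74 to 1753.55 TPM (median 1504.26) against 2983.92 to 3311.61 TPM (median 3230.95), a log2 fold change of -1.08 (SE 0.0315, limma adjusted p = 5.43e-11). In none of these 3 genes did the libraries of the 2 sample types overlap. A change was called at an adjusted p below 0.05 with a fold change of at least 1.5 on the log2(TPM + 1) scale, and by that rule 14.6% of all tested genes rose and 8.99% fell between these sample types, so that 2 higher and 1 lower of 10 lie near the background. The median log2 fold change was 0.11 over the 10 genes and -0.0025 over all tested genes.

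The other 7 genes differed between sorted and cultured cells by less than 1.5-fold. The enzymes Tyr and Dct were higher in sorted cells: Tyr ranged from 396.08 to 466.55 TPM against 294.33 to 388.15 TPM (log2 fold change 0.34), and Dct from 5259.17 to 6107.07 TPM against 4016.41 to 4739.43 TPM (0.38), with no overlap in either gene. Slc45a2, a proton-coupled sugar transporter of the melanosome, ranged from 445.7 to 536.54 TPM in sorted and from 344.51 to 394.77 TPM in cultured cells (0.41), again without overlap. Pmel, the fibril protein, lay lower in sorted cells, at 2531.08 to 3287.68 TPM against 3730.31 to 3972.02 TPM (-0.45), as did Sox10 at 223.62 to 245.62 TPM against 253.05 to 274.65 TPM (-0.16), both without overlap. Mc1r (-0.31) and Tyrp1 (-0.12) lay lower on average with overlapping ranges. All 10 genes had a limma adjusted p below 0.05, 5 of them higher and 5 lower, a p that 31.7% of all tested genes passed upward and 34.8% downward, and Tyrp1, with an adjusted p of 0.0465, passed it in only 7 of 27 alternative settings. Sox10 passed it in 25 of 27, with values from -0.17 to -0.07.

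Bulk tumors, for which no digestion or magnetic depletion is described, differed from cultured cells in the same 3 called genes. Mitf ranged from 228.13 to 407.61 TPM in the 6 bulk tumors (median 370.13), a log2 fold change of 1.14 (SE 0.107, limma adjusted p = 1.27e-06) from the cultured values above, Oca2 from 37.96 to 47.67 TPM (1.11, SE 0.0613, adjusted p = 6.73e-09 by limma), and Mlana from 1721.47 to 2049.19 TPM (-0.76, SE 0.0315, adjusted p = 4.62e-10 by limma). Again no bulk library overlapped a cultured one in these genes. Both comparisons use the same cultured libraries, so the second is no independent repeat of the first. By the same rule 15.8% of all tested genes were higher in bulk tumors and 3.95% lower, 2079 and 520 genes, a split that quantile normalization turned to 1314 and 1711. Of the genes under 1.5-fold, Slc45a2 (log2 fold change 0.51), Tyr (0.34), Dct (0.11) and Sox10 (0.09) lay higher and Pmel (-0.48) lower at a limma adjusted p below 0.05, 6 of 10 higher and 2 lower with the called genes included, against 32.5% and 28.2% of all tested genes. The p of Dct (0.0396) held in 9 and that of Sox10 (0.0378) in 16 of 26 alternative settings. For Mc1r and Tyrp1 the difference was -0.07 (adjusted p = 0.193 by limma) and -0.05 (0.370).

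Between bulk and sorted tumors 0 of the 10 genes passed the rule, against 9.26% of all tested genes higher and 4.31% lower in bulk (1218 and 567 genes, or 946 and 1384 after quantile normalization), and 6 of the 10 and 55.6% of all tested genes had an unadjusted limma p below 0.05. Mlana ranged from 1721.47 to 2049.19 TPM in bulk and from 1321.74 to 1753.55 TPM in sorted tumors (log2 fold change 0.32, limma adjusted p = 3.17e-06), with some overlap. Sox10 was higher in every bulk than in every sorted library (270.57 to 297.59 TPM against 223.62 to 245.62 TPM, 0.25), and Dct was lower in every bulk than in every sorted library (4457.73 to 4935.06 TPM against 5259.17 to 6107.07 TPM, -0.27). Mc1r (0.24) and Mitf (-0.33) differed with overlapping ranges. These 5 genes had an adjusted p below 0.05, 3 higher and 2 lower in bulk, a p that 31.1% of all tested genes passed upward and 18.8% downward. Over 27 alternative settings the value of Mitf ran from -0.48 to -0.19, with a limma adjusted p below 0.05 in 24. The ratio of the levels of Mlana and Mitf was 17.2 to 24.7 in cultured cells, 4.27 to 8.77 in bulk tumors and 2.47 to 4.57 in sorted tumors, with an overlap between the tumor samples. The ratio of Mlana and Dct was 0.634 to 0.822, 0.362 to 0.449 and 0.230 to 0.313, with none. In sorted against cultured cells, growth in a host cannot be told apart from digestion and magnetic depletion, while for bulk tumors neither step is described. Bulk tumors also differ from cultured cells by the other cells they hold.

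**Figure D2:**
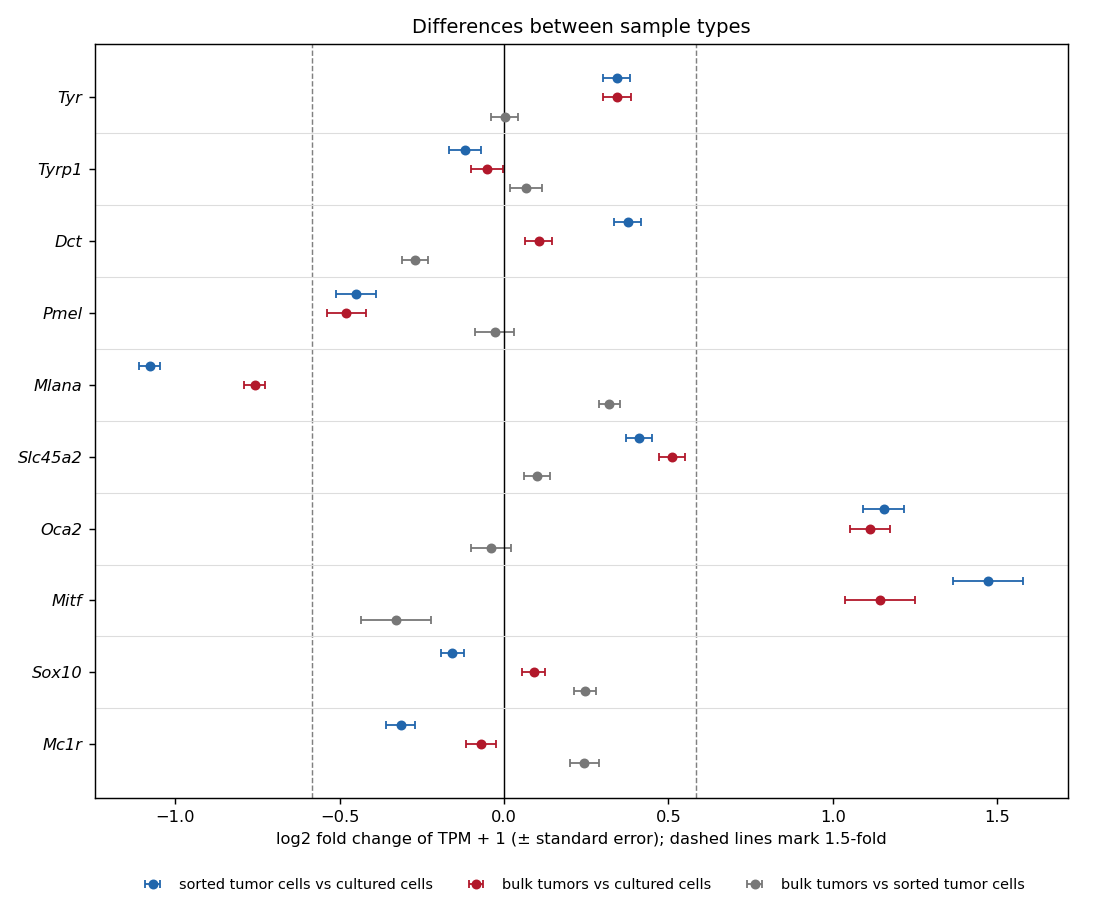
Log2 fold change of TPM + 1 with its standard error for each gene in the 3 comparisons of sample types, each over 6 against 6 libraries, with dashed lines at 1.5-fold. Mitf and Oca2 lie beyond the line on the higher side and Mlana on the lower side in both comparisons with cultured cells, and no gene passes it between bulk and sorted tumors.

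Other cell types were present in the bulk tumors and scarce in the sorted ones, and these values stand beside every bulk result. The summed level of 8 leukocyte markers was 157.68 to 389.02 TPM in bulk (median 282.08), 55.87 to 84.23 TPM in sorted and 13.55 to 19.75 TPM in cultured libraries. All 8 were called higher in bulk than in sorted tumors, as were 9 of 9 tested macrophage markers, which summed to 226.02 to 516.19 TPM in bulk and 3.83 to 12.99 TPM in sorted libraries. Ptprc, Cd52, Laptm5, Cytip and every macrophage marker but Cd68 passed the filter of a mean of 1 TPM only through the bulk libraries. Their calls follow from that filter and only describe in which samples they were seen. C1qb, a complement subunit made by macrophages, was the most abundant macrophage marker in bulk and at most 0.31 TPM in sorted libraries, where Cd68, a lysosomal protein, made up most of the sum at 3.62 to 12.09 TPM. The 8 fibroblast markers summed to 340.35 to 958.07 TPM in bulk, where the collagen gene Col3a1 led, and to 3.34 to 6.27 TPM in sorted libraries, where Pdgfrb had the highest median. All 6 that were tested were called higher in bulk. Among them, Col3a1, Dcn and Lum passed the filter only through the bulk libraries, so their calls follow from it. T cell markers summed to 14.54 to 44.72 TPM in bulk, 2.91 to 6.0 TPM in sorted and 0.65 to 1.55 TPM in cultured libraries. Endothelial markers summed to 65.55 to 80.64 TPM in bulk, 13.96 to 32.19 TPM in sorted, where Vwf made up most of them, and 0.33 to 1.6 TPM in cultured libraries. Ptprc, which encodes the pan-leukocyte antigen CD45, was at most 0.15 TPM in the sorted samples and at 0 in all 6 cultured ones. Lcp1, an actin-bundling protein of leukocytes that tumor cells can also express, was 26.78 to 47.46 TPM in sorted and 0.59 to 1.34 TPM in cultured cells. Schwann cells share the neural crest origin of melanocytes, and their markers, of which Cdh19 had the highest median in each of the 3 sample types, summed to 65.98 to 76.34 TPM in bulk, 46.43 to 62.69 TPM in sorted and 86.89 to 108.47 TPM in cultured libraries. Keratinocyte markers reached at most 10.28 TPM in bulk and 0.48 TPM in sorted libraries, and adipocyte markers, mostly Fabp4, 49.72 to 65.13 TPM in bulk and at most 0.59 TPM in sorted libraries. The 10 pigment genes summed to medians of 16401 TPM in bulk and 16601 TPM in sorted tumors, and the part of other cells in single-gene differences between bulk and sorted tumors was not tested. In such samples fewer cells of a type and less RNA per cell cannot be told apart. Mitochondrial transcripts made up 4.728 to 6.702% of the bulk, 3.446 to 8.018% of the sorted and 2.556 to 3.653% of the cultured libraries.

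A wider list of 85 pigment and melanocyte genes, sorted by role, moved in both directions between the sample types. Of the 69 tested, 12 rose and 10 fell in sorted against cultured cells, and 11 rose and 4 fell in bulk against cultured cells. These counts, and those of the lists below, are to be read against the 14.6% and 8.99%, and the 15.8% and 3.95%, of all tested genes. Among melanosome structure and cargo genes, 3 of 12 rose and 2 fell in sorted cells, led by Trpm1, a cation channel gene and classical MITF target, at 294.19 to 452.58 TPM (median 366.68) against 37.98 to 73.8 TPM in cultured cells (median 43.16), a log2 fold change of 2.84. Slc7a11, the cystine transporter behind the subtle gray coat colour, rose by 2.11, whereas Rab32, which delivers enzymes to the melanosome, fell by 0.72. Of the 18 tested genes of the melanosome biogenesis complexes, 1 rose in sorted cells, Hps4 (0.63), and 2 fell, Hps6 (-0.96) and Dtnbp1 (-0.76), and 0 were called in bulk against cultured cells. Of 6 transport genes only Mlph, the myosin adaptor of melanosomes, was called in sorted cells (-0.79). Among other transcription factors 4 of 10 rose and 2 fell. Hes1, a Notch target, was 35.74 to 54.04 TPM in sorted and 1.55 to 2.93 TPM in cultured cells (3.88), Pax3, an activator of Mitf, rose by 0.96, and Tfap2a fell by 1.02. Of 10 signalling genes, Pomc, the precursor of melanocortins, rose (1.09) and Erbb3, a neuregulin receptor, fell (-0.66).

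Of 8 tested MITF targets in growth and survival, 2 rose and 0 fell in sorted against cultured cells and likewise in bulk against cultured cells, again beside 14.6% and 15.8% of all tested genes called higher. Ppargc1a, a coactivator of mitochondrial genes, ranged from 124.01 to 189.15 TPM in sorted, from 71.42 to 120.95 TPM in bulk and from 25.22 to 31.13 TPM in cultured libraries, with no overlap among the 3, and the survival gene Bcl2 rose by 1.32 in sorted cells and by 1.21 in bulk tumors. Of 5 tested genes linked to a MITF-low melanoma state, 1 rose and 2 fell in sorted cells: Jun, an immediate-early gene, at 102.53 to 237.7 TPM against 16.89 to 18.31 TPM (2.99), while Nes, a neural progenitor gene, fell by 0.88. In bulk against sorted tumors 8 of the 69 list genes rose and 8 fell, against 9.26% and 4.31% of all tested genes. Those higher in bulk included Ednrb, the endothelin receptor of melanoblasts (2.62), Axl, a receptor kinase (2.09), Zeb1 (1.42) and Kitl, the KIT ligand (1.20), beside the higher stromal and leukocyte sums given above, and Hes1 (-3.03) and Jun (-3.00) were lower in bulk. Kit (0.69) was also called higher in bulk. Ednrb, Zeb1, Kitl and Kit were at most 0.06, 0.6, 1.4 and 1.85 TPM in sorted libraries. They passed the filter of a mean of 1 TPM only through the bulk libraries, so their calls follow from that filter. The counts of list genes higher in bulk include them.

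The guide comparisons asked whether loss of NR2F6 changes these genes. Nr2f6 RNA itself was 25.83 and 25.24 TPM in bulk control, 17.22 and 15.76 TPM in bulk sg495 and 22.31 and 23.31 TPM in bulk sg492. In sorted cells it was 20.32 and 17.73 TPM in control, 10.6 and 12.18 TPM with sg495 and 19.84 and 25.7 TPM with sg492, and in cultured cells 31.88 and 32.9 TPM, 18.55 and 22.43 TPM, and 26.55 and 31.5 TPM. With sg495 both libraries lay below both controls in all 3 sample types. The log2 fold change was -0.60 in bulk (limma adjusted p = 0.0865), -0.69 in sorted (0.126) and -0.64 in cultured cells (0.0213). In the libraries labelled sg492 it was -0.16, 0.24 and -0.16 (adjusted p of 0.678, 0.769 and 0.663 by limma), with both libraries below both controls in bulk and in culture, by small margins, and 1 of the 2 libraries above both controls in sorted cells. Nr2f6 lies on chromosome 8, whose tested genes had median log2 fold changes with sg495 of -0.25 in bulk, -0.34 in sorted and -0.33 in cultured cells. The part of the chromosome in the Nr2f6 values was not tested. An RNA level does not measure a small insertion or deletion. The study checked the knockout by immunoblot and by sequencing the sites targeted by the guides, data that were not examined here. With 2 libraries against 2, an exact permutation test cannot give a two-sided p below 0.333, and the tests below rest on limma's shared estimate of spread.

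Mc1r, the melanocortin receptor, was the only one of the 10 genes called in any guide comparison. In cultured cells it was 92.71 and 91.66 TPM in control, 55.98 and 56.36 TPM with sg495 and 109.45 and 101.8 TPM with sg492. The sg495 libraries lie close together and far below the controls, and Mc1r fell by 0.70 on the log2 scale (SE 0.0490, limma adjusted p = 0.00188), to 0.614 of the control. In this comparison 2.77% of all tested genes were called, 2.03% as lower. In bulk tumors Mc1r was 82.12 and 85.76 TPM in control, 61.11 and 64.53 TPM with sg495 (log2 fold change -0.41, SE 0.106, adjusted p = 0.142 by limma) and 99.2 and 80.86 TPM with sg492. In sorted cells it was 70.78 and 71.18 TPM, 54.11 and 54.53 TPM with sg495 (-0.38, SE 0.0704, adjusted p = 0.0796 by limma), and 72.39 and 74.01 TPM with sg492. Both sg495 libraries lay below both controls in every sample type, with adjusted p short of the threshold in the tumors. In the fit of all 18 libraries, an alternative setting, the limma adjusted p was 0.00998 in bulk and 0.00974 in sorted cells, both below 1.5-fold.

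The lower Mc1r stood among generally lower values of its chromosome. With sg495 the median log2 fold change of the genes tested on chromosome 8 was -0.25 in bulk (717 genes), -0.34 in sorted (684 genes) and -0.33 in cultured cells (645 genes), against 0.067, -0.028 and 0.0086 on the other chromosomes. Of the chromosome 8 genes, 81.03%, 86.11% and 90.7% lay below 0. With sg492 the medians of chromosome 8 were 0.034, 0.019 and 0.031. Within 2.0 Mb of Mc1r the medians with sg495 were -0.28 (68 genes), -0.38 (67) and -0.28 (62). Among the chromosome 8 genes, 127 (17.7%) in bulk, 301 (44.0%) in sorted and 33 (5.12%) in cultured cells had a lower value than Mc1r. The rule called 0.139%, 3.8% and 8.84% of the chromosome 8 genes. Mc1r is thus near the middle of its chromosome in sorted cells and towards its lower end in cultured cells, and the part of the chromosome in the Mc1r result was not tested.

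**Figure D3:**
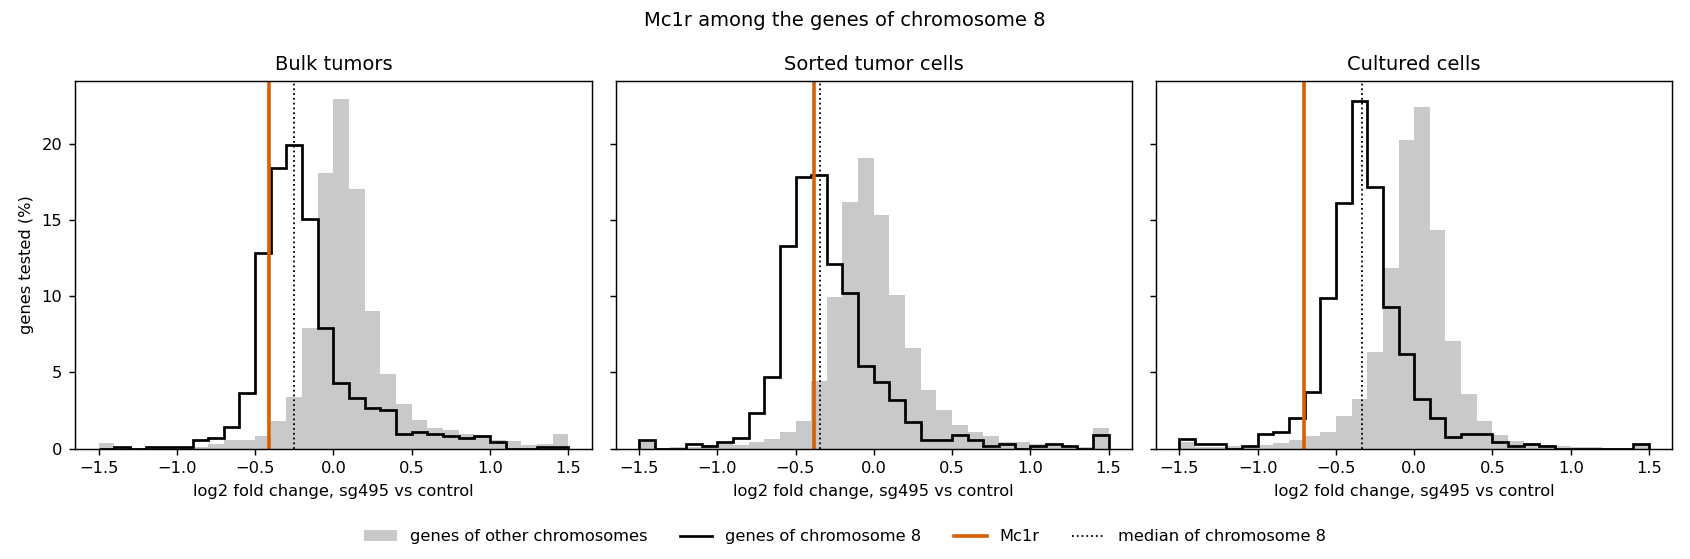
Share of tested genes (vertical axis, percent) by log2 fold change of sg495 against control (horizontal axis) for chromosome 8 (black line) and all other chromosomes (gray), with Mc1r in orange and the chromosome 8 median dotted; the outermost bins also hold all values beyond them. The chromosome 8 genes are centred on -0.25, -0.34 and -0.33 in bulk, sorted and cultured samples, and Mc1r lies at -0.41, -0.38 and -0.70.

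For the other pigment genes the guides left small differences. In cultured cells with sg495, Tyr was 305.57 and 294.33 TPM against 350.73 and 333.43 TPM in control (log2 fold change -0.19, SE 0.0402, adjusted p = 0.0350 by limma), and Oca2 was 17.29 and 18.37 TPM against 25.39 and 22.12 TPM (-0.39, SE 0.0834, limma adjusted p = 0.0350). Dct was 4016.41 and 4075.35 TPM against 4505.8 and 4448.35 TPM (-0.15, adjusted p = 0.0253 by limma). In each of these 3 genes both sg495 libraries lay below both controls, but no fold change reached 1.5 and the p held in only 5, 4 and 6 of 15 alternative settings, respectively. With Mc1r they make 4 of 10 genes lower at an adjusted p below 0.05, against 7.5% of all tested genes. Tyrp1 differed by 0.10 in the other direction (adjusted p = 0.0827 by limma), and the ratio of the levels of Tyrp1 and Dct was 1.42 and 1.40 with sg495 against 1.20 and 1.17 in control.

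In the tumors sg495 gave 0 of 10 calls in bulk, where 0.0293% of all tested genes were called, and 0 of 10 in sorted cells, where 0.899% were, with 1 and 3 of the 10 at an unadjusted limma p below 0.05, a p that 15.7% and 15.6% of all tested genes passed. Mitf in sorted cells was 498.19 and 535.23 TPM in control and 368.74 and 383.89 TPM with sg495 (log2 fold change -0.46, SE 0.0734, adjusted p = 0.0567 by limma, or 0.0473 with the filter at 5 TPM), without overlap. In bulk it was 377.02 and 363.23 TPM in control and 400.53 and 228.13 TPM with sg495 (-0.29, SE 0.252, adjusted p = 0.644 by limma), and 1 library decides the direction, since without sg495 replicate 2 the value is 0.11. That library also had the highest fibroblast marker sum, 958.07 TPM. In bulk the medians of the leukocyte, macrophage, fibroblast and T cell marker lists lay at 0.97, 0.91, 0.77 and 0.71 log2 above control with sg495, with 0 markers called. With sg492 the medians in the same order were 0.71, 0.59, 0.42 and 0.22, also with 0 called. In the difference of sg495 effects between bulk and cultured samples, 3 of 8 leukocyte markers, Coro1a (1.64), Ptprc (1.46) and Itgb2 (1.00), were called higher in bulk. Of 9 macrophage markers 1, Adgre1 (1.31), was, against 1.76% of all tested genes in either direction. Ptprc and Adgre1 were at 0 TPM in all 6 cultured libraries, so their differences restate the values in bulk. The part of other cells in the bulk values of the pigment genes was not tested. Mlana in sorted cells was 1337.55 and 1321.74 TPM in control and 1644.08 and 1753.55 TPM with sg495 (0.35, SE 0.0827), again without overlap. Its limma adjusted p of 0.135 was short of the threshold, but was 0.00178 in the fit of all 18 libraries. For Sox10 and Slc45a2 the sg495 values ran from -0.03 to 0.06 over the 3 sample types.

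With sg492, 0 of the 10 genes was called in any sample type, against 0%, 0.0388% and 0.05% of all tested genes in bulk, sorted and cultured samples. At an unadjusted limma p below 0.05 there were 0, 1 and 6 of the 10, and 8.3%, 7.13% and 10.5% of all genes. The 6 in cultured cells included Oca2, at 17.12 and 16.96 TPM against 25.39 and 22.12 TPM in control (log2 fold change -0.45, SE 0.0834, adjusted p = 0.205 by limma), and Mitf, at 166.76 and 173.72 TPM against 155.42 and 134.27 TPM (0.24, adjusted p = 0.357 by limma). Oca2 in culture thus lay lower with both guides, each compared with the same 2 control libraries, while Tyr in culture lay lower with sg495 and at 388.15 and 381.82 TPM, above control, with sg492 (0.17, adjusted p = 0.282 by limma). In sorted cells Mitf was 426.95 and 409.57 TPM with sg492, below both controls as it was with sg495 (log2 fold change -0.30, adjusted p = 0.561 by limma). Mlana was 1432.88 and 1575.64 TPM there, above both controls as with sg495 (0.18, adjusted p = 0.715 by limma). Each pair of guides shares its controls, so these are not independent repeats. Mc1r, lower with sg495, had values of 0.19 or less above control with sg492.

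**Figure D4:**
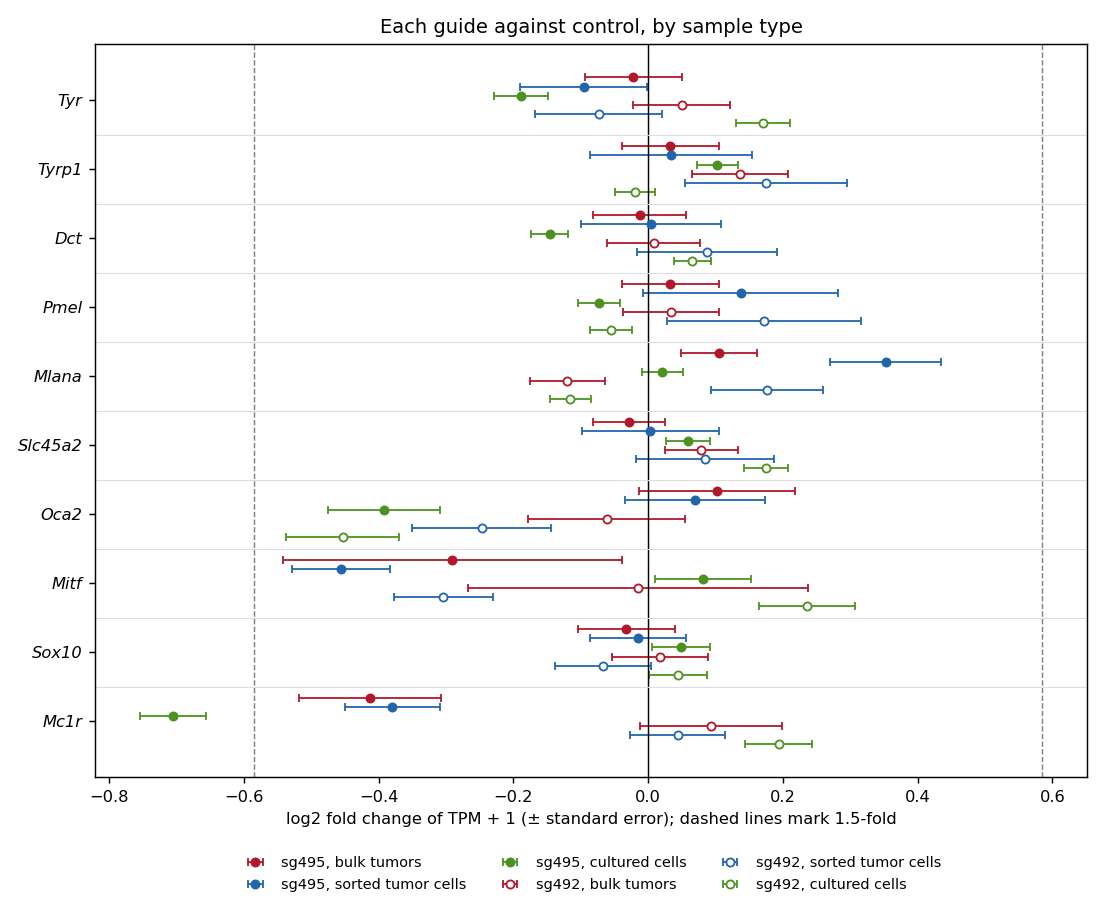
Log2 fold change of TPM + 1 with its standard error for each gene under sg495 (filled) and sg492 (open) in bulk, sorted and cultured samples, 2 against 2 libraries each, with dashed lines at 1.5-fold. Mc1r under sg495 in cultured cells, at -0.70, is the only point beyond a dashed line.

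The sg495 effects of the 3 sample types were compared with each other as differences of differences over the 18 libraries. By the rule 0 of the 10 genes differed between any 2 sample types, against 0.122% of all tested genes for bulk and sorted, 2.51% for sorted and cultured and 1.76% for bulk and cultured, with 1, 3 and 2 of the 10, and 16.0%, 18.7% and 15.3% of all tested genes, at an unadjusted limma p below 0.05. Mlana was higher with sg495 in sorted cells, as given above, and nearly level in culture, at 3299.31 and 3284.17 TPM against 3177.73 and 3311.61 TPM. The difference of these effects was 0.33 (SE 0.0772, adjusted p = 0.0344 by limma), below 1.5-fold, 1 of 10 genes at a p that 2.08% of all genes passed in that direction. For Mc1r the effect in sorted cells was smaller than in culture by 0.33, with an adjusted p of 0.129 by limma, so that the call in culture alone does not show a difference between the sample types. For Mitf the difference of sorted and cultured effects was -0.54 (adjusted p = 0.299 by limma), and for Oca2 it was 0.46 (0.117).

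In the wider pigment lists sg495 in cultured cells gave 3 higher and 3 lower genes of 66 tested, where 2.77% of all tested genes were called. Slc7a11 fell by 1.41, Bhlhe40, a transcriptional repressor, by 0.85 and Sytl2, which tethers melanosomes at the membrane, by 0.78. Ngfr, a neural crest receptor (1.33), Trpm1 (0.81) and Tead4 (0.65) rose. Cultured Ngfr reached 4.4 and 3.9 TPM under sg495 but no more than 1.12 TPM in control or under sg492. It passed the filter of a mean of 1 TPM only through the sg495 libraries, so its call follows from that filter. The count of 3 higher genes includes Ngfr. In sorted cells, where 0.899% of all tested genes were called, sg495 gave 1 call of 67, Axl, which was 13.72 and 14.53 TPM against 1.53 and 2.15 TPM in control (2.42, adjusted p = 0.0134 by limma), and in bulk 0 of 72, against 0.0293% of all tested genes. The sorted sg495 libraries had macrophage marker sums of 7.73 and 12.99 TPM, against 5.39 and 3.83 TPM in control. Most of these sums was Cd68, at 6.76 and 12.09 TPM against 5.06 and 3.62 TPM. C1qb was 0.3 and 0.31 TPM against 0.0 and 0.07 TPM, and Ptprc 0.15 and 0.02 TPM against 0.0 and 0.03 TPM. The leukocyte sums of the sg495 libraries were 76.95 and 84.23 TPM against 62.14 and 55.87 TPM. Lcp1 led them, at 40.26 and 47.46 TPM against 32.61 and 26.78 TPM. Mitochondrial transcripts made up 8.018 and 3.819% against 3.997 and 4.031%. The part of other cells or of library quality in the sorted Axl value was not tested. For the difference of sg495 effects in sorted and cultured cells, 3 of 69 list genes were called as higher in sorted cells and 1 as lower, against 2.51% of all tested genes in either direction. They were Axl (2.45, adjusted p = 0.000794 by limma), Bhlhe40 (0.94), Usf1, an E-box-binding factor (0.76), and Tead4 (-0.71). For bulk and cultured samples Axl (1.33) and Bhlhe40 (1.11) were called, against 1.76% of all tested genes, beside the 4 leukocyte and macrophage markers called there. For bulk and sorted samples 0 of 69 were called. Axl was 42.74 to 168.96 TPM in the IgG and anti-PD1 libraries, where leukocyte sums were highest, and the part of other cells in its bulk values was not tested. With sg492 0 list genes were called in any sample type.

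The anti-PD1 and IgG libraries carried the pigment genes at a fraction of the level of the other 18. The 10 genes summed to 4038.44 and 1714.99 TPM with IgG and to 5242.91, 5178.61 and 3439.81 TPM with anti-PD1, 0.1715 to 0.5243% of the libraries. For Tyr the values were 74.28 and 23.37 TPM with IgG and 110.58, 160.9 and 95.68 TPM with anti-PD1, for Mitf 79.96 and 30.75 TPM and 106.74, 123.77 and 81.57 TPM, and for Mc1r 25.06 and 7.48 TPM and 39.68, 32.03 and 24.59 TPM. The groups did not overlap for Tyr and Mitf and overlapped for Mc1r. All 10 genes had a higher mean on the log2 scale with anti-PD1, from 0.22 for Oca2 to 1.49 for Tyr, with a median of 0.92 against -0.037 over all genes, but none was called (limma adjusted p of 0.608 to 0.772). Of all tested genes 0% were called. With the replicate number as a block 5 of the 10 (Tyr, Mitf, Sox10, Slc45a2 and Mc1r) and 514 genes in all were called, but the numbers did not pair these libraries. At an unadjusted limma p below 0.05 there were 5 of the 10 and 7.18% of all genes. IgG replicate 2 was the lowest of the 5 libraries in 9 of the 10 genes, Oca2 being the exception at 7.87 TPM. Without that library the median was 0.31, the values ran from -0.09 to 0.68 and 0 genes had an unadjusted limma p below 0.05. Without IgG replicate 1 the median was 1.55 and 9 genes had such a p. Each of these fits leaves 1 IgG library, takes its spread from the anti-PD1 libraries and assumes that the lone library varies like them, so their p-values are given as a description. Without anti-PD1 replicates 1, 2 and 3 in turn the medians were 0.79, 0.84 and 1.10, with 1, 0 and 7 genes at such a p.

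Markers of other cells were abundant in these libraries, and 0 leukocyte, macrophage or T cell markers were called between anti-PD1 and IgG. Leukocyte markers summed to 3702.4 and 4253.6 TPM with IgG and to 1821.8, 3222.8 and 3682.9 TPM with anti-PD1, and macrophage markers to 5307.5 and 4804.0 TPM and to 3376.2, 4628.8 and 3641.8 TPM, many times their level in the bulk tumors. T cell markers summed to 162.2 and 252.3 TPM with IgG and to 33.1, 55.8 and 320.0 TPM with anti-PD1, and fibroblast markers to 13.63 to 73.17 TPM. Mitochondrial transcripts made up 10.201 and 11.427% with IgG and 21.935, 8.629 and 16.607% with anti-PD1. The library with the highest leukocyte sum, IgG replicate 2, had the lowest pigment sum, but the macrophage sum was highest in IgG replicate 1 and the T cell sum in anti-PD1 replicate 3. The part of other cells in the difference was not tested.

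**Figure D5:**
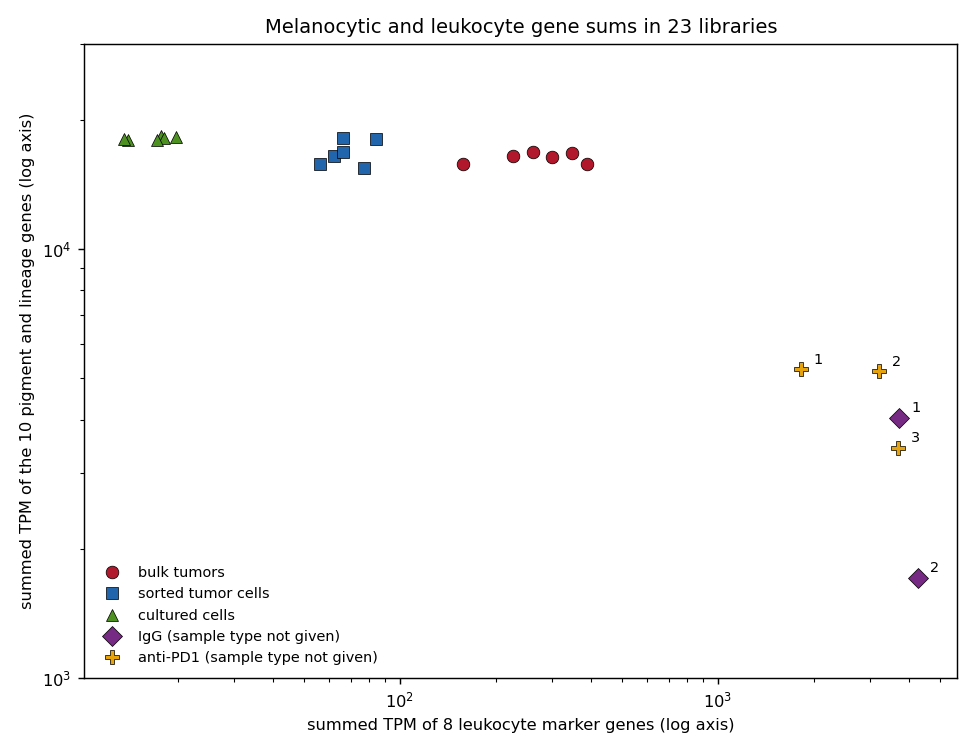
Summed TPM of the 10 pigment and lineage genes (vertical, log axis) against the summed TPM of 8 leukocyte markers (horizontal, log axis) in 23 libraries, with replicate numbers beside the IgG and anti-PD1 points. Pigment sums stay between 15388.29 and 18315.63 TPM in the 18 libraries while leukocyte sums run from 13.55 to 389.02 TPM, and the 5 IgG and anti-PD1 libraries lie lower and further right.

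Over the 18 libraries, the genes whose log2(TPM + 1) profile was most like that of each pigment gene were found by Pearson's r among genes that averaged 5 TPM or more. They were Rap2a for Mitf (r = 0.975), Lactb for Mlana (0.981), 2010107G23Rik for Oca2 (0.972), Bmyc for Tyr (0.944) and Fam149a for Mc1r (0.94). For the remaining genes they were Bok for Slc45a2 (0.966), Mapk8ip1 for Pmel (0.962), Txndc16 for Dct (0.961), Syde1 for Sox10 (0.906) and D030056L22Rik for Tyrp1 (0.807). The next for Mc1r were 2700029M09Rik (0.934) and Hsdl1 (0.931), and all 3 genes nearest to Mc1r by this measure lie on chromosome 8. After removal of the group means the nearest to Mc1r were Zfp97 (0.915), Gjb2 (0.87) and Gga2 (0.833), of which none lies on chromosome 8. These values describe 18 libraries that share their sample types and guides, and fall into 3 sample types. Among the 10 genes, with the mean of each of the 9 groups taken out, r between pairs ran from -0.536 (Mitf and Mc1r) to 0.928 (Pmel and Slc45a2), over 18 libraries that then hold 9 independent differences and share the scaling of each library. With the group means kept, r for Pmel and Slc45a2 was -0.798.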

How the data were processed

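Poly(A)-selected, directional RNA-seq libraries (single reads of 75 bases) of 23 samples were made by the authors. According to the submitters' processing notes and the study's methods, reads were trimmed with Cutadapt 2.3 and aligned to mm10 with STAR 2.7.0d, and genes were quantified with RSEM 1.3.1. The authors deposited 1 table of TPM, scaled for gene length and library total, so the counts behind it and the depth of each library are unknown here, and a few very abundant genes can lower all others. The study tested estimated counts, which were not used here.

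TPM was analysed as log2(TPM + 1) over genes that averaged 1 TPM or more in the libraries fitted, with limma 3.58.1 (R 4.3.3; lmFit and eBayes with trend), 1 mean per group, and Benjamini-Hochberg adjustment over all genes tested. Fold changes on this scale understate those of low genes. Guides were compared with control in fits of the 6 libraries of a sample type. Sample types (mean of the control, sg492 and sg495 groups) and differences of sg495 effects were compared in a fit of 18 libraries. Anti-PD1 was compared with IgG in a fit of 5, which makes 13 comparisons in all. Groups came from the labels. The code was tested on simulated data. Tables and plots were made with Python 3.11.15, pandas 2.3.3 and matplotlib 3.10.9.

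The members and all lists were chosen with earlier results of these data known. Named are the 10 genes, Nr2f6, list genes called in a guide comparison, up to 4 called genes of largest change per list between sample types, the most abundant marker of each other cell type and the genes of most similar profile; other markers named were chosen after their values were seen. Positions and promoter windows came from the GRCm38 annotation and RefSeq (GRCm38.p6). Alternatives were the pseudocount (0.1), the filter (none, or 5 TPM), median-of-ratios or quantile scaling, the replicate number as a block, no trend, no fold threshold, other sets of libraries and each library left out.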

Additional observations from a re-analysis of the deposited data

Results flagged for a closer look

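One value stood out by a test of a difference between groups. The effect of sg495 on Mlana, the melanosome protein also known as MART-1, was larger in the sorted than in the cultured samples by 0.33 on the log2 scale (adjusted p = 0.0344 by limma over 18 libraries). Both sg495 libraries lay above both controls in sorted cells (1644.08 and 1753.55 TPM against 1337.55 and 1321.74 TPM), while in cultured cells they lay at 3299.31 and 3284.17 TPM against 3177.73 and 3311.61 TPM. The difference is below 1.5-fold, and over 26 alternative settings it ranged from 0.29 to 0.38 with an adjusted p of 0.0126 to 0.147, below 0.05 in 13. No group held 4 or more libraries, so no library was tested as an outlier within its group.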

How the results depend on the processing

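Of 274 alternative values of the 13 counts of called pigment genes, 267 stayed within 1.5 times the count reported and 7 moved. Without a fold threshold the count was 4 for sg495 in cultured cells (1 with it), 5 for bulk against sorted (0), 10 for sorted against cultured (3), 8 for bulk against cultured (3) and 1 for the sg495 effect in sorted minus cultured cells (0). Leaving out 1 library each gave 0 to 1 for the sg495 effect in bulk minus cultured samples, the 1 being Mitf (-0.78) without bulk sg495 replicate 1. With each library left out in turn, Mitf in bulk sg495 against control ran from -0.70 to 0.11 and Mitf in that difference from -0.78 to 0.032, both reversed only without bulk sg495 replicate 2. Of 879 alternative values of single genes, 853 kept their direction and their side of the combined rule of adjusted p and fold change, 24 newly passed, mostly where no fold change was asked for, and 2, those of Mitf, reversed. The adjusted p alone was lost more often for several genes under 1.5-fold, as given beside their values. Mc1r with sg495 in cultured cells was called in all 15 alternatives (-0.71 to -0.69). Leaving out the sorted sg492 libraries, added after seeing the data, changed no count of pigment genes.

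The shared replicate numbers did not pair the libraries: same-numbered deviations correlated by -0.126 for bulk sg492, -0.006 for bulk sg495, -0.029 and 0.038 for sorted sg492 and sg495, 0.012 and 0.051 for cultured sg492 and sg495, and 0.085 for anti-PD1 with IgG. With the replicate block anti-PD1 against IgG gave 5 called pigment genes (0 without it) and 514 genes in all (0), and no other count of pigment genes moved. Exchanging the numbers of bulk sg492, added after seeing the data, gave 0 pigment genes and 0 genes in all.

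Over all genes, the number called ran from 0 to 395 for sg495 in bulk (4 reported), 3 to 399 in sorted (116) and 165 to 366 in cultured cells (332), and for sg492 from 0 to 66 (0), 0 to 14 (5) and 0 to 6 (6). For the differences of sg495 effects it ran from 6 to 130 (16), 136 to 391 (330) and 35 to 418 (231), and for sample types from 983 to 2570 (1785), 2251 to 3683 (3107) and 1478 to 3519 (2599). Quantile normalization turned the split of higher and lower genes from 1218 and 567 to 946 and 1384 for bulk against sorted, and from 2079 and 520 to 1314 and 1711 for bulk against cultured. The cause of these shifts was not tested.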

Other observations

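As a share of the pigment transcripts, the single-gene differences between sample types were as follows. Of the summed TPM of the 10 genes, Dct took 33.0 to 35.4% in sorted tumors, 28.2 to 30.2% in bulk tumors and 22.4 to 26.0% in cultured cells, with no overlap among the 3. Mlana took 8.1 to 10.7%, 10.3 to 12.7% and 16.5 to 18.4% in the same order. The transcription factor Mitf took 2.12 to 3.40% in sorted tumors, 1.44 to 2.49% in bulk tumors, which overlaps the sorted range, and 0.74 to 0.97% in cultured cells. The IgG and anti-PD1 libraries, whose sample type is not given, had ratios of Tyrp1 to Dct levels of 0.665 to 0.969 and of Mlana to Mitf levels of 3.84 to 5.72.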
